A study of Mus musculus with 3 samples.

Results

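The 10 genes described here are the circadian clock genes Nr1d1, Nr1d2, Per1, Per2, Arntl, Clock, Cry1, Cry2, Dbp and Nfil3, chosen by name from 55536 gene entries. They were measured by sequencing of polyadenylated RNA in mouse macrophages derived from bone marrow, of strain C57BL/6J, treated at 100 ng/mL for 480 minutes. The labels differ on the agent: lipid A, the membrane anchor of bacterial lipopolysaccharide, in one field and lipoprotein A in others. The series is 1 group of 3 biological replicates, called replicates 1, 2 and 3, with 26589042, 34344922 and 48356527 expected counts on gene entries. The labels give separate biosamples but the same donor identifier for all of them, so p-values measure only the spread between these samples, which may be partly technical. No untreated sample and no other time point was analysed here. The values are therefore levels at 1 time and say nothing of induction, repression or rhythm.

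The circadian clock is a transcriptional feedback loop that runs in nearly every cell, macrophages included. CLOCK and BMAL1 (the product of Arntl) bind E-box sequences as a pair and switch on the Per and Cry genes, whose proteins return to the nucleus and block that pair. A coupled loop runs through the nuclear receptors REV-ERBα (Nr1d1) and REV-ERBβ (Nr1d2), which repress Arntl from ROR elements. A further branch runs through D-box sequences, which DBP activates and NFIL3 (also E4BP4) represses. In macrophages the REV-ERB proteins are also known as repressors of inflammatory genes.

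The promoters that hold such letters are shown because factors of the loop are known to bind such letters. Windows of 250 bases before to 50 bases after each RefSeq start were searched on both strands for the E-box CACGTG, the related E′-box CACGTT, the D-box TTANGTAA and the ROR element, which is the half-site AGGTCA directly after AANT. RefSeq tables on build GRCm38.p6 gave 13 windows for 9 of the 10 genes. Of these windows, 5, from 5 genes, held at least 1 motif, and no window held the D-box letters. The motif is in capitals, and a motif on the opposite strand reads as its reverse complement.
Cry1, chr10:85185005-85185304, minus strand: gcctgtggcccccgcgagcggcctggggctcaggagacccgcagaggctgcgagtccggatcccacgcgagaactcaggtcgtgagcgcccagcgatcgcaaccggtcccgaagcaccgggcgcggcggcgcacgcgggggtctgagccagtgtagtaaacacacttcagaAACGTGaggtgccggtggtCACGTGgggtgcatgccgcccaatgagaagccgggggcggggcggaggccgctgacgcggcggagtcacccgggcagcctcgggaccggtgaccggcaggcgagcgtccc
Per1, chr11:69098699-69098998, plus strand: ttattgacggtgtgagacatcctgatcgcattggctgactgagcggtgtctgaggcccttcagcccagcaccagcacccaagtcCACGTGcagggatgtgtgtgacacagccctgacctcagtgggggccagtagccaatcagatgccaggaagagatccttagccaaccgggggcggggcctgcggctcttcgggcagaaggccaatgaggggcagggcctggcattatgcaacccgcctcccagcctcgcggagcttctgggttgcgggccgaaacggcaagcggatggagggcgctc
Nr1d1, chr11:98775328-98775627, minus strand: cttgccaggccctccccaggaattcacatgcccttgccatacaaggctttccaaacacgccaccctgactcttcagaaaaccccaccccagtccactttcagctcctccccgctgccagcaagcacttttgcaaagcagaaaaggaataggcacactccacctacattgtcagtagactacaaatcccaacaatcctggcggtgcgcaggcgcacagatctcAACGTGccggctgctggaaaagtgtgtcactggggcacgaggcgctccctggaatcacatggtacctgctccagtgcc
Cry2, chr2:92434020-92434319, minus strand: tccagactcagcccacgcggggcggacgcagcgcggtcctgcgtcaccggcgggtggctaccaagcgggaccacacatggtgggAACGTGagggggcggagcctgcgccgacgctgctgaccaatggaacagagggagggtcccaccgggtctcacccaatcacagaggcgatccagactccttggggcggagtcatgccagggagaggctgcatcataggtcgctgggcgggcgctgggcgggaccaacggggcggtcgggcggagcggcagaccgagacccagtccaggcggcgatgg
Arntl, chr7:113207261-113207560, plus strand: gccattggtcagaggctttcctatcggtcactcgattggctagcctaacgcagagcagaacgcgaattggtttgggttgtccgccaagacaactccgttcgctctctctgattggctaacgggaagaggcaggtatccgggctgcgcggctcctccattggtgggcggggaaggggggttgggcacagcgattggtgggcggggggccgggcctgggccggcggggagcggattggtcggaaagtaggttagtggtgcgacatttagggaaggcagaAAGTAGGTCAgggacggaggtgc

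With the start base counted as 0, Cry1 held an E-box from -60 to -55 and an E′-box from -79 to -74. Per1 held an E-box from -166 to -161, in the window whose start lies beside that of its main transcript Per1-201. The E′-boxes of Cry2 and Nr1d1 lay from -166 to -161 and from -28 to -23. Arntl held the ROR element from 27 to 36 in the window shown. Its other window, chr7:113207215-113207514, whose start is that of its main transcript Arntl-201, held no motif. Among all 32851 RefSeq windows of this length, 7.15% held the E-box, 4.68% the E′-box, 2.32% the D-box and 0.219% the ROR element. The share with any of these motifs was not computed, so the number of clock gene windows with a motif has no background here. A match describes the letters and shows no binding, and no such letters in a window says nothing of the factor.

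**Figure D1:**
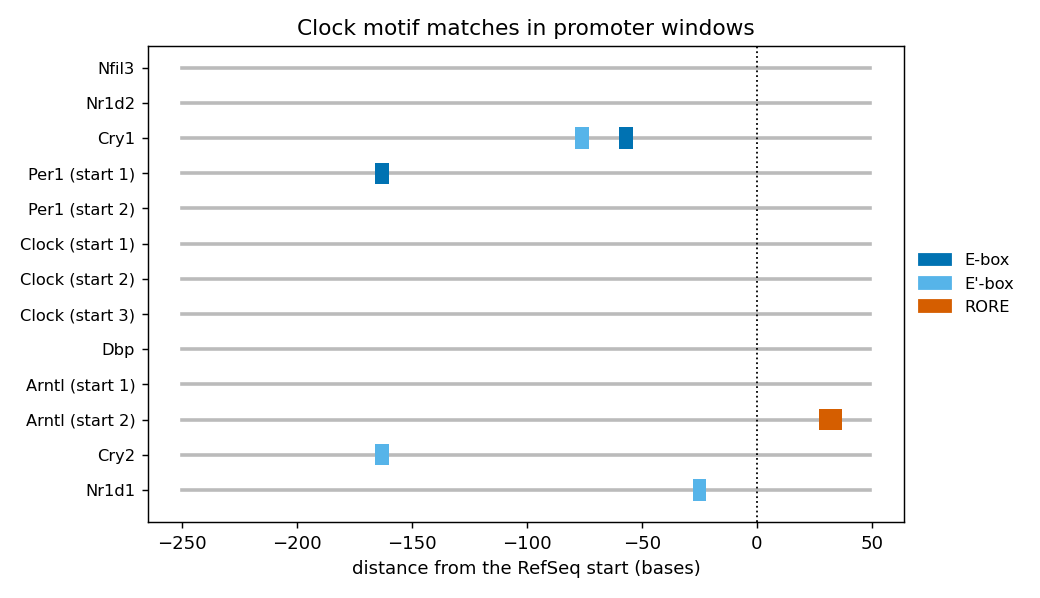
Positions of the searched motifs in 13 promoter windows of 9 clock genes, as distance in bases from the RefSeq start. Bars mark motifs on either strand; 5 windows hold one, and Cry1 holds an E-box and an E′-box.

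The cells carried the markers of macrophages, and 1 library stood apart in markers of another cell type. Levels are the authors' TPM, abundances per transcript length scaled to 1 total in every library, and a gene is called detected at 1 TPM or more in all 3 libraries. The 8 macrophage markers were all detected and summed to 21243, 16752 and 18121 TPM in replicates 1, 2 and 3. The 8 neutrophil markers summed to 22.9, 421 and 21.4 TPM. All 8 were highest in replicate 2, and Elane, Mpo and Ly6g were at 0 in the other libraries. No T cell, B cell, NK cell or fibroblast marker was detected (14 genes in all, at most 0.847 TPM on average).

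Most clock genes were expressed at a low level in the treated macrophages. In all, 7 of the 10 clock genes were detected, beside 17.9% of all gene entries and 48.5% of the 20476 genes with counts in any library. Without replicate 2 the number was also 7. Nfil3 was highest at 26.6 ± 6.48 TPM and Per2 lowest at 0.0633 ± 0.0416 TPM (SD, n = 3). The median of the 10 genes' mean levels was 2.62 TPM, beside 1.26 TPM over genes with counts and 14.0 TPM over the 9930 detected genes. All 10 had counts in every library. In RNA from whole cultures, fewer cells that express a gene and less RNA per cell cannot be told apart.

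The activators of the loop were both detected at a few TPM. Clock, the DNA-binding partner that also acetylates histones (ENSMUSG00000029238.11, chr5:76209868-76304792 on mm10, minus strand), stood at 2.68, 2.89 and 2.80 TPM in replicates 1, 2 and 3, from 406, 585 and 728 counts. In these values its 3 libraries lay closer together than those of any other clock gene, with a coefficient of variation (CV, SD over mean) of 3.78%. That rank depended on the quantification. In a further deposited quantification, made without an alignment file, Clock stood at 2.40, 3.28 and 2.68 TPM in replicates 1, 2 and 3. Cry1 lay closer together there, at 3.54, 3.58 and 3.74 TPM. Arntl, which encodes BMAL1 (ENSMUSG00000055116.8, chr7:113207465-113314126, plus strand), stood at 1.98, 1.22 and 2.06 TPM, from 84, 71 and 174 counts. Replicate 2 was low and the other libraries lay close together, giving a CV of 26.4%. Arntl lay below Clock in 3 of 3 libraries, with a mean difference, Arntl minus Clock, of -0.67 ± 0.44 on the log2(TPM + 0.1) scale (SD, n = 3). That distance did not exceed 2 SD, the rule used here for a pair of genes that stand apart.

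The period and cryptochrome repressors spanned a wide range, and in each family 1 paralog stood well above the other. Per1, a PAS-domain repressor (ENSMUSG00000020893.17, chr11:69095217-69109960, plus strand), stood at 3.55, 2.79 and 2.92 TPM in replicates 1, 2 and 3, with a mean of 3.09 ± 0.406 TPM (SD, n = 3). Replicate 1 was the highest. Of these levels the 496-base transcript Per1-204 gave 1.07, 0.34 and 0.57 TPM, from only 4.46, 1.73 and 4.01 counts. The main transcript Per1-201 stood at 2.17, 2.18 and 1.86 TPM, where replicate 1 was not the highest. The spread of the Per1 level and its place beside Clock thus rest in part on few reads. Per2, the paralog of Per1 (ENSMUSG00000055866.9, chr1:91415982-91459324, minus strand), stood at 0.05, 0.11 and 0.03 TPM from 5, 14 and 5 counts. Replicate 2 was the highest there, with an exact 95% Poisson interval of 0.0601 to 0.185 TPM, which overlaps those of replicate 1 (0.0162 to 0.117 TPM) and replicate 3 (0.00974 to 0.0700 TPM). These intervals cover counting error only. Per1 exceeded Per2 by 4.31 ± 0.46 log2 units in 3 of 3 libraries, on the log2(TPM + 0.1) scale, which understates differences of genes this low. With a pseudocount of 0.01 the distance was 5.54 log2 units.

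Cry1, a repressor of the CLOCK and BMAL1 pair (ENSMUSG00000020038.10, chr10:85131700-85185064, minus strand), stood at 4.79, 3.79 and 4.64 TPM in replicates 1, 2 and 3. Replicate 2 was the low library in these values. It was not in the further quantification, where Cry1 stood at 3.54, 3.58 and 3.74 TPM. Its paralog Cry2 (ENSMUSG00000068742.11, chr2:92403646-92434043, minus strand) stood at 0.59, 0.69 and 0.79 TPM, under the detection level in each library. Cry1 exceeded Cry2 by 2.51 ± 0.28 log2 units in 3 of 3 libraries. The 95% Poisson intervals of Cry2, from 0.418 to 0.810 TPM in replicate 1 and from 0.636 to 0.970 TPM in replicate 3, overlapped.

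The REV-ERB pair was also unequal, with Nr1d2 above Nr1d1 in every library. Nr1d2 (ENSMUSG00000021775.11, chr14:18204054-18239127, minus strand) stood at 12.5, 11.1 and 11.5 TPM in replicates 1, 2 and 3, from 756, 990 and 1349 counts. Its libraries lay close together, with a CV of 6.22%, and it was above 73.4% of the genes with counts. Nr1d1 (ENSMUSG00000020889.11, chr11:98767932-98775333, minus strand) stood at 0.40, 0.07 and 0.22 TPM, from 17, 4 and 16 counts. Replicate 1 was high and replicate 2 low, and their 95% Poisson intervals of 0.233 to 0.640 TPM and 0.0191 to 0.179 TPM did not overlap. Replicate 3 lay between, with an interval of 0.123 to 0.350 TPM that overlapped both. Nr1d1 minus Nr1d2 was -5.29 ± 0.70 log2 units (SD, n = 3), and with a pseudocount of 0.01 it was -5.90 log2 units.

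The genes of the D-box factors were also unequal in total RNA level, with that of the repressor above that of the activator. Nfil3 (ENSMUSG00000056749.7, chr13:52967209-52981073, minus strand), a bZIP repressor that is also known for its part in lymphoid and myeloid immune cells, stood at 27.4, 19.8 and 32.7 TPM in replicates 1, 2 and 3, from 840, 813 and 1827 counts. Replicate 2 was low and replicate 3 high, and Nfil3 was above 83.1% of the genes with counts and 65.2% of the detected genes. Dbp, the PAR-bZIP activator (ENSMUSG00000059824.12, chr7:45705088-45710203, plus strand), stood at 2.19, 2.66 and 2.47 TPM from 27.6, 43.6 and 57.4 expected counts. Its 95% Poisson intervals, 1.48 to 3.21 TPM in replicate 1 and 1.95 to 3.61 TPM in replicate 2, overlapped. Dbp minus Nfil3 was -3.37 ± 0.45 log2 units, negative in 3 of 3 libraries. Most of the Dbp level lay on a retained-intron transcript without coding sequence. The coding transcripts of Dbp stood at 0.31, 0.28 and 0.67 TPM in replicates 1, 2 and 3.

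**Figure D2:**
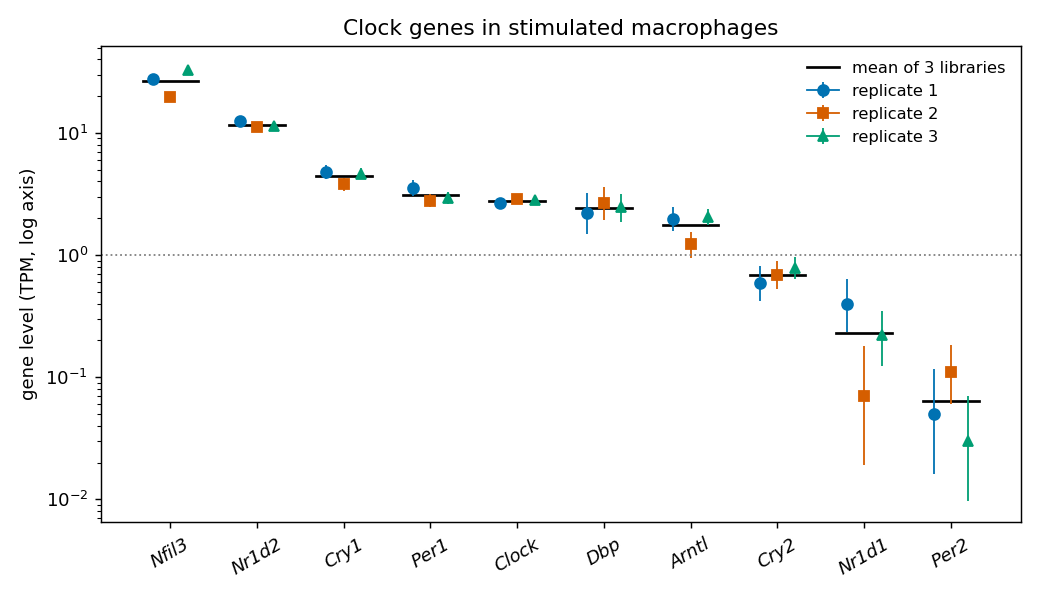
Level of each clock gene in TPM (log axis) in replicates 1, 2 and 3, in order of mean level; bars are exact 95% Poisson intervals, horizontal lines are means and the dotted line marks 1 TPM. Nfil3 and Nr1d2 stand above the other genes in every library, and Per2, Nr1d1 and Cry2 stay under 1 TPM.

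By mean level the order was Nfil3, Nr1d2, Cry1, Per1, Clock, Dbp, Arntl, Cry2, Nr1d1 and Per2. Of the 9 neighbouring pairs in that order, 5 stood apart: Nfil3 and Nr1d2, Nr1d2 and Cry1, Cry1 and Per1, Clock and Dbp, and Arntl and Cry2. Per1 and Clock differed by 0.13 ± 0.23 log2 units and Dbp and Arntl by 0.48 ± 0.51 log2 units, neither beyond 2 SD. Cry2 and Nr1d1 differed by 1.39 ± 0.88 log2 units, and Nr1d1 and Per2 by 0.91 ± 1.08 log2 units with the opposite sign in replicate 2. The distance between Clock and Dbp was small, 0.19 ± 0.08 log2 units, and the Clock value lay inside the Poisson interval of Dbp in each library (1.86 to 3.18 TPM in replicate 3). Without replicate 3, 3 neighbouring pairs stood apart, and Clock with Dbp and Arntl with Cry2 no longer did.

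Of the 10 pairs set by role, 8 stood apart, including 4 of the 6 with Arntl. Arntl is among the genes that the REV-ERB proteins repress. Nr1d1 minus Arntl was -2.59 ± 0.47 log2 units, whereas Nr1d2 minus Arntl was 2.70 ± 0.35 log2 units, each with the same sign in 3 of 3 libraries. Nfil3 lay 3.86 ± 0.11 log2 units above Arntl, the steadiest of these distances, and Per1 lay 0.81 ± 0.32 log2 units above it. Without replicate 1 the Per1 distance was 0.81 log2 units and no longer stood apart. Arntl with Clock and Dbp with Arntl were the other pairs, and both stood apart without replicate 2, the library with the lowest Arntl.

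The spread of each clock gene between libraries was set against counting error. A chi-square test (2 degrees of freedom) asked whether each gene's counts, after scaling of the libraries, spread by more than counting error, with Benjamini-Hochberg adjustment over every gene whose counts averaged 10 or more. It called 4 of the 9 clock genes tested, against 70.9% of 12414 genes. The called genes were Nfil3 (adjusted p = 1.21e-36), Arntl (adjusted p = 5.97e-05), Nr1d1 (adjusted p = 0.00179) and Cry1 (adjusted p = 0.00303). The test did not call Nr1d2 (adjusted p = 0.210), Cry2 (adjusted p = 0.437), Per1 (adjusted p = 0.675), Clock (adjusted p = 0.677) or Dbp (adjusted p = 0.928). Per2, with a mean count of 8, was not tested. Over all genes the share called was 45.9% at mean counts of 10 to 100, 68.1% at 100 to 500 and 80.2% at 500 to 2000. Calls did not always follow the CV of TPM: Cry1 was called at 12.2%, whereas Per1, at 13.2%, and Cry2, at 14.5%, were not. The test used scaled counts, which were 320, 237 and 303 for Cry1 in replicates 1, 2 and 3. For Per1, of like depth (mean counts of 294 for Cry1 and 254 for Per1), they were 261, 240 and 242. Cry2 had a mean count of 63. Clock and Nr1d2, with mean counts of 573 and 1032, were among the deeply counted genes that were not called.

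Scaled counts show which library set each call. Nfil3 had 1167, 788 and 1356 scaled counts in replicates 1, 2 and 3. Arntl had 117, 68.8 and 129 scaled counts and Cry1 had 320, 237 and 303. For these genes replicate 2 was the low library and the other libraries lay nearer each other. Nr1d1 had 23.6, 3.88 and 12.1 scaled counts, with replicate 2 low and replicate 1 high. Among the 9 tested clock genes, 6 were lowest in replicate 2, 2 in replicate 1 and 1 in replicate 3, while of all 12414 genes 38.6% were lowest in replicate 2, 35.9% in replicate 1 and 25.5% in replicate 3.

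Replicate 2 was also the library with the high neutrophil markers, and their part in the spread of the clock genes was not tested. Without replicate 2, 1 of the 9 clock genes was called, Nfil3, against 41.9% of all genes tested. Arntl (adjusted p = 0.576), Cry1 (adjusted p = 0.645) and Nr1d1 (adjusted p = 0.0938) were then not called. Nr1d1 was also not called without replicate 1 (adjusted p = 0.0601), nor Cry1 with library totals as the only scaling (adjusted p = 0.0776).

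**Figure D3:**
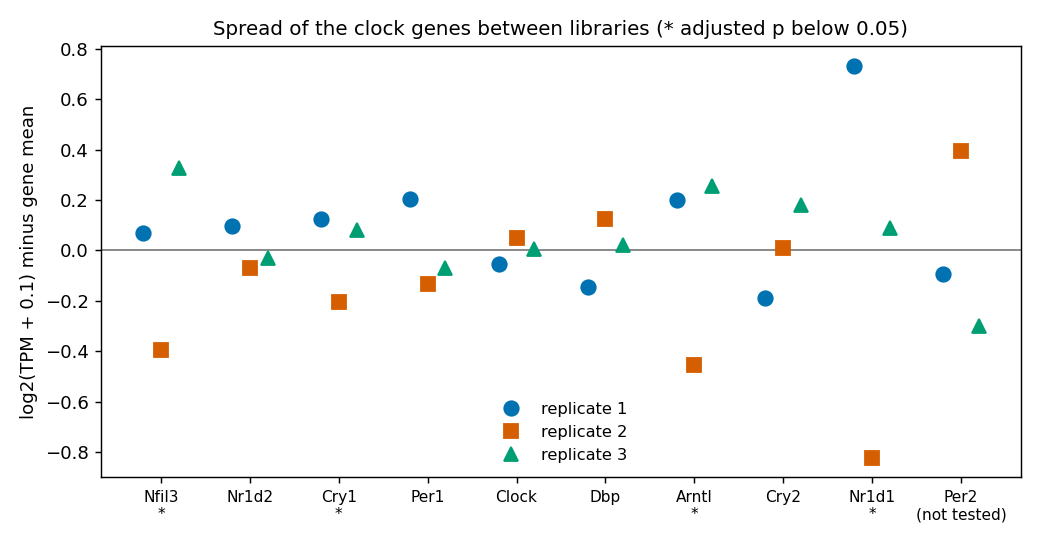
Distance of each library from the gene's own mean on the log2(TPM + 0.1) scale, for replicates 1, 2 and 3 of each clock gene in order of mean level. Stars mark the 4 genes called by the chi-square test; replicate 2 is the lowest library for each of them, at -0.82 for Nr1d1 and -0.46 for Arntl.

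The size of the spread was set beside that of all tested genes. The median CV of TPM was 13.2% for the 9 tested clock genes and 18.0% for all tested genes. The biological coefficient of variation fitted by edgeR had a median of 21.3% for the clock genes and 20.5% for all. It was 51.9% for Nr1d1, 29.2% for Arntl and 15.0% for Nr1d2. Nr1d1 had the highest CV of TPM, 71.8%, and its pattern over the libraries was compared with those of 9069 genes whose counts averaged 100 or more. The closest by Euclidean distance on the centred log2(TPM + 0.1) scale were Cebpb at 0.0357, Ifitm1 at 0.0487 and Idi1 at 0.0536. Cebpb, a bZIP factor of myeloid cells, stood at 128, 43.0 and 83.9 TPM in replicates 1, 2 and 3. The pseudocount compresses the pattern of Nr1d1, whose highest and lowest TPM differed 5.71-fold, and barely that of the higher genes, so the likeness depends on it. Nr1d1 itself rests on 4 to 17 counts. With 9069 genes compared over 3 libraries, some close patterns are likely for any gene, and a shared cause was not tested.

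Transcript shares added a difference in kind between the genes. A share is the percent of a gene's TPM that the authors' model gave to each annotated transcript. In all 10 genes 1 transcript held at least 57.4% of the gene in every library, and in 9 of them it was protein coding. Per2, Cry1 and Nfil3 had 100% on Per2-201, Cry1-201 and Nfil3-201 in each library, and Nfil3 has no other annotated transcript. Nr1d1-201 held 100, 100 and 94.6% in replicates 1, 2 and 3, and Cry2-201 held 100, 100 and 94.7%.

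Dbp was the exception. Its main transcript, Dbp-202 (chr7:45707889-45709896), is annotated as a retained intron, is 815 bases long and has no coding sequence. It held 79.1, 82.8 and 66.1% of Dbp in replicates 1, 2 and 3, from 16.7, 27.4 and 27.8 counts. A second quantification, made from the reads without an alignment file, put the share at 75.4, 79.9 and 64.0%. The coding transcripts of Dbp together stood at 0.31, 0.28 and 0.67 TPM, so that the coding part alone was under 1 TPM in every library although the gene was detected. Dbp shares 539 exonic bases, 18.0% of its exons, with Sphk2 on the opposite strand, which stood at 53.2, 41.5 and 50.6 TPM. In Dbp-202 the shared stretch is 232 bases, 28.5% of the transcript. The coding Dbp-201, Dbp-203 and Dbp-204 share 29.3, 35.9 and 38.9% of their lengths with Sphk2. Whether counting used strand is not given in the sources used here, so reads of Dbp and Sphk2 in the shared stretches cannot be told apart.

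Nr1d2 also had retained-intron transcripts, which held 24.6, 16.4 and 16.2% of the gene in replicates 1, 2 and 3. Its coding Nr1d2-201 held 75.4, 83.6 and 80.1%. At 9.44, 9.32 and 9.18 TPM, that transcript alone was above every other clock gene but Nfil3. Nr1d1 shares 263 bases of Nr1d1-201, 9.67% of the transcript, with Thra, the thyroid hormone receptor on the opposite strand, which stood at 1.88, 2.03 and 1.75 TPM. Nr1d1 rests on 4 to 17 counts, and reads of that stretch cannot be told apart either. Cry2 overlaps D930015M05Rik by 295 bases and Arntl overlaps Gm45355 by 33 bases, and both of those genes were at 0 counts.

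The other genes with several coding transcripts differed between libraries or quantifications. Arntl-201 held 68.9, 66.1 and 98.1% of Arntl in replicates 1, 2 and 3. Arntl-206, whose start lies further into the gene, held 9.14, 33.9 and 0%, from 6.93, 21.2 and 0 counts. Replicate 3 carried nearly all its Arntl on 1 transcript. Per1-201 held 61.0, 78.2 and 63.6%, and the 496-base Per1-204 held 30.1, 12.3 and 19.6% from only 4.46, 1.73 and 4.01 counts.

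Clock was the 1 gene whose main transcript depended on the quantification. Clock-205, of 9744 bases, held 76.4, 84.5 and 57.4% in replicates 1, 2 and 3, and Clock-201, of 7478 bases, held 17.6, 0 and 31.9%. In the second quantification Clock-201 was the main transcript, and Clock-205 held 22.3, 16.7 and 20.8%. Both carry the same 2565 coding bases. Their summed share was 94.0, 84.5 and 89.3% in the first quantification and 88.2, 85.0 and 88.4% in the second.

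**Figure D4:**
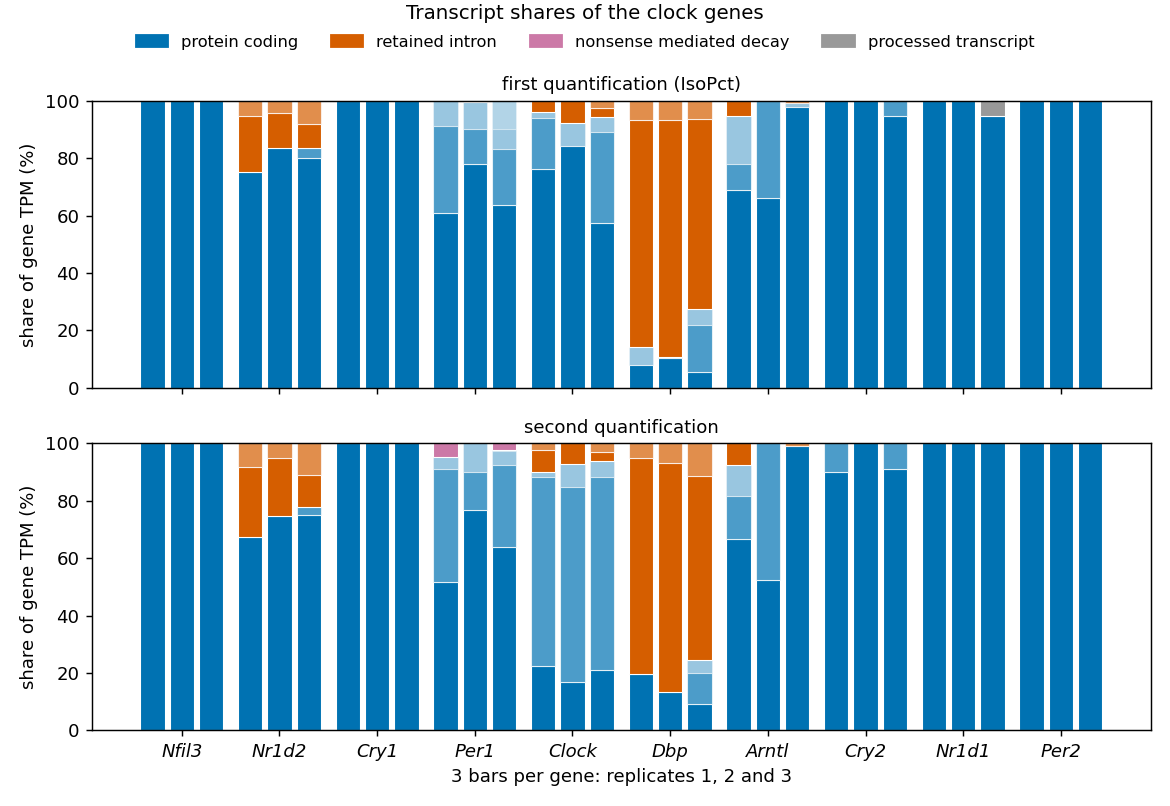
Share of each clock gene's TPM, in percent, on its annotated transcripts (segments, coloured by annotated type) in replicates 1, 2 and 3, for the first quantification above and the second under it. In the first, Dbp has 66.1 to 82.8% on 1 retained-intron transcript, and Per2, Cry1 and Nfil3 have 100% on 1 coding transcript.

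Other genes of the clock pathway, listed by role from general knowledge, were detected in 27 of 39 cases, beside 17.9% of all gene entries and 48.5% of genes with counts. Their median was 7.23 TPM, beside 1.26 TPM over genes with counts and 14.0 TPM over detected genes. The paralogs of the activators were near 0: Npas2, which can replace CLOCK, stood at 0, 0.02 and 0.20 TPM, and Arntl2 at 0, 0.03 and 0.04 TPM in replicates 1, 2 and 3. In the second quantification Arntl2 stood at 0.555, 0.764 and 0.906 TPM, still under 1 TPM. Per3 stood at 0.63, 0.16 and 0.40 TPM, and the repressor Ciart at 0.70, 0.42 and 1.85 TPM. Timeless and Tipin, partners at the replication fork, were the detected members of that group, at 13.9 ± 3.23 and 3.66 ± 1.74 TPM (SD, n = 3).

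Rora and Rorb, nuclear receptors that activate Arntl from the same elements that the REV-ERB proteins occupy, were not detected. Rora stood at 0.61, 0.42 and 0.42 TPM in replicates 1, 2 and 3. Rorb had 1 count in all. Of the other D-box and E-box factors, Tef stood at 3.04 ± 0.386 TPM, Bhlhe40 at 2.17 ± 0.923 TPM and Bhlhe41 at 3.80 ± 1.29 TPM (SD, n = 3). These are a PAR-bZIP activator and a pair of E-box repressors. Hlf, the remaining PAR-bZIP gene, had 1 count in all.

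Most of the enzymes and cofactors that act on the clock proteins were detected. All 6 kinases and phosphatases were detected, from Csnk1e at 9.84 ± 1.89 TPM to Csnk1d at 74.2 ± 7.39 TPM (SD, n = 3), both casein kinases that phosphorylate PER proteins. Of the 5 ubiquitin ligase and deubiquitinase genes 3 were detected. Among them, Fbxw11 and Btrc, which mark PER proteins, stood at 88.9 ± 5.73 and 12.8 ± 0.872 TPM. Fbxl21 stood at 0.203 ± 0.0896 TPM, and the deubiquitinase gene Usp2 at 0.73, 1.24 and 1.16 TPM. All 6 corepressors and coactivators were detected, from Sirt1 at 6.11 ± 1.20 TPM to Ncor1 at 47.9 ± 9.31 TPM. Ncor1 and Hdac3, which carry out repression by REV-ERB proteins, were both well expressed, with Hdac3 at 20.2 ± 3.45 TPM.

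All 5 clock outputs were detected, from the mitotic kinase gene Wee1 at 5.08 ± 1.33 TPM to Nampt, which makes NAD precursors, at 269.8 ± 25.5 TPM (SD, n = 3). Of the 4 genes known to be repressed through REV-ERB proteins in macrophages, 2 were detected. The chemokine gene Ccl2 stood at 1113 ± 132 TPM, and Il6 at 40.0, 33.0 and 18.0 TPM in replicates 1, 2 and 3. The protease gene Mmp9 stood at 0.24, 0.71 and 0.11 TPM, and the fractalkine receptor gene Cx3cr1 at 0.02, 0.04 and 0.05 TPM. Mmp9, which neutrophils also express, was highest in replicate 2, the library with the high neutrophil markers, whose part in that value was not tested. None of these levels was tested against those of Nr1d1 or Nr1d2. The chi-square test called 27 of the 32 pathway genes tested, beside 70.9% of all genes tested and 80.2% of those with mean counts of 500 to 2000. That range holds only part of the pathway genes, whose mean counts ran from 15.3 for Ciart to 26608 for Nampt. Neither share is therefore a background matched for depth.

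**Figure D5:**
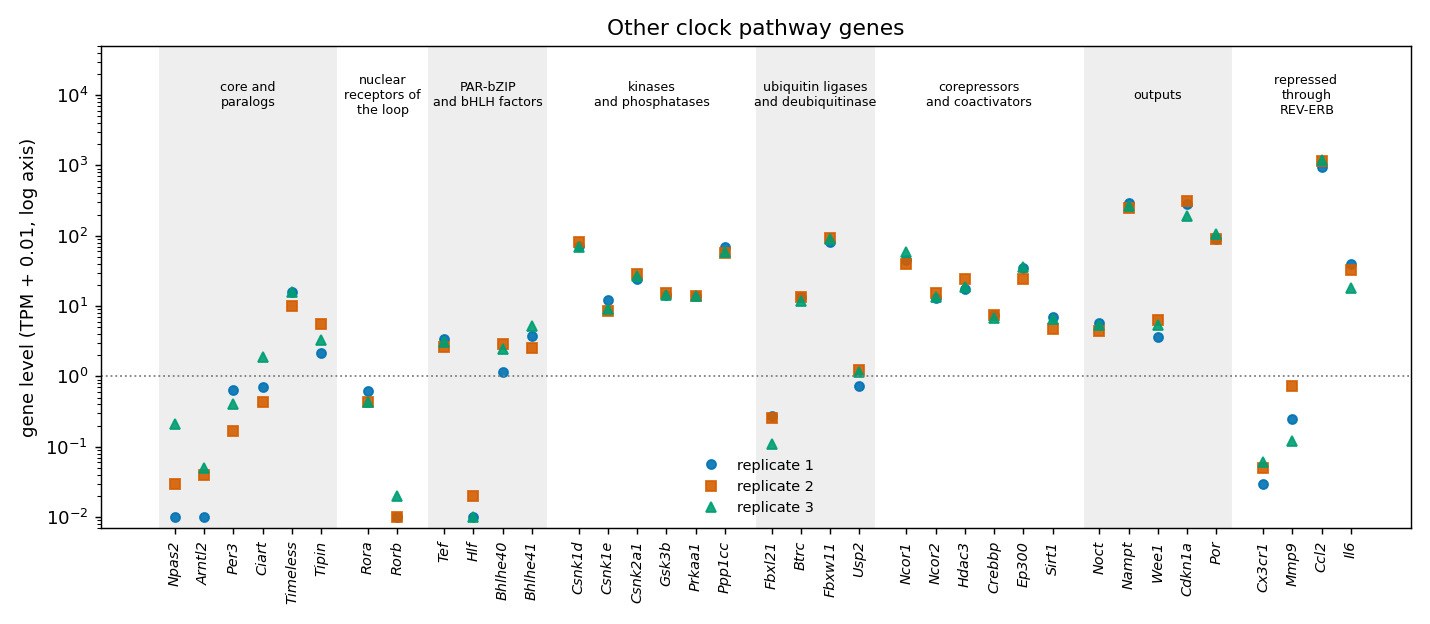
Levels of other clock pathway genes in TPM + 0.01 (log axis) in replicates 1, 2 and 3, grouped by role; the dotted line marks 1 TPM. Kinases and corepressors all lie above it, and Rora and Rorb lie under it.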

How the data were processed

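Per the file readmes, the authors used assembly mm10 and the GENCODE M21 annotation. Which programs were run, and whether strand was used, is not given in the sources used here. The gene tables and matching transcript tables came from a transcriptome alignment, per the file headers. The deposited expected counts are estimated by a model and unscaled. The deposited TPM and FPKM values are scaled per length and library, and the deposited percent values give each transcript's share of its gene. A further deposited quantification, which used no alignment file, holds estimated counts with TPM and was summed per gene.

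Members were joined by gene identifier. The genes, lists, pairs, tests and thresholds were chosen with earlier results of these data known. All 10 genes are named; of other pathway genes, the highest, the lowest and those at 0 of each role are named, with some others picked after their values were seen. Some genes that meet this rule are counted in the totals but not reported here. Likeness names the 3 nearest genes to the member with the highest CV. Log values use a pseudocount of 0.1. A pair stood apart when 3 of 3 libraries had the same sign and the mean exceeded 2 SD. The chi-square test used rounded counts and TMM-scaled totals (adjusted p below 0.05), was tested on simulated data, and takes the authors' model counts as observed. Totals of 26589042 to 48356527 counts set the precision. Alternatives covered libraries, scaling, count minimums, thresholds, pseudocounts, FPKM and the second quantification. The scaling and dispersions came from edgeR 4.0.16 in R 4.3.3 (limma 3.58.1), alternative size factors from DESeq2 1.42.0, and the rest from Python 3.11.15 with pandas 2.3.3, numpy 2.4.6, matplotlib 3.10.9 and scipy 1.17.1.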

Additional observations from a re-analysis of the deposited data

How the results depend on the processing

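At a threshold of 5 TPM, 2 clock genes were detected. Leaving out 1 library in turn, the number of clock genes detected was 7 to 7, of pathway genes detected 27 to 28, of clock genes varying 1 to 4, of role pairs apart 7 to 10 and of neighbouring pairs apart 3 to 7. The low values came without replicate 2 for the varying genes (1) and without replicate 3 for the neighbouring pairs (3). Pairs that stood apart kept their sign under every alternative run. In the second quantification the main transcript of Clock changed, with Clock-205 at 20.0% on average. Nfil3 was called varying under all 8 alternatives (adjusted p up to 0.00113), Arntl under 7 of 8, Cry1 under 6 of 8 and Nr1d1 under 5 of 7. In the second quantification the means of Nr1d2, Cry1 and Dbp moved by more than their SD, to 10.4, 3.62 and 1.94 TPM. These were 89.0, 82.1 and 79.5% of the first values, beside a median of 85.6% over all detected genes. Nfil3, at 78.3%, moved within its wider SD. The shift was uneven between libraries, with medians over detected genes of 76.5, 94.5 and 84.8% in replicates 1, 2 and 3. In replicate 2 Nr1d1, Nr1d2, Arntl, Clock and Cry2 stood at 129, 104, 102, 113 and 103% of their first values. The other clock genes were lower there than in the first. TPM patterns between libraries, such as the low replicate 2 of Cry1, therefore depend on the quantification. Log2 distances of genes under 1 TPM depend on the pseudocount: with 1 in place of 0.1, Per1 over Per2 was 1.94 and Nr1d1 over Nr1d2 was -3.38. Depth limits Per2, Nr1d1, the transcripts of Dbp and Per1 and the retained-intron transcripts of Nr1d2. No paired analysis was possible because the series holds a single group.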
